A study of Bos taurus with 170 samples.

Results

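MYF5, F3, PDE6C, UCHL1, DPP4, UBASH3A and NETO1 are 7 of the 10772 genes listed in a table of transcript counts from single blastomeres of bovine embryos. They were grouped because each is known from differentiated tissues, though not necessarily from these alone, and because each had a higher level in Day 2 than in Day 3 embryos. The difference between the days therefore chose the genes, and the values that show it are given below as a description, without a test. All 7 genes were listed under their own symbol and are accounted for here.

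The samples were blastomeres of 6 Day 2 embryos, labelled as 8-cell stage, and of 8 Day 3 embryos, labelled as 16-cell stage. All embryos came from oocytes of slaughterhouse ovaries that were matured, fertilised with frozen-thawed semen and cultured in vitro, and no embryo of either day was treated. The zona pellucida was digested with pronase before the blastomeres were taken apart, and each cell was sequenced by SCRB-Seq, which reads the 3′ end of each captured mRNA and marks it with a random tag, the UMI, by which copies made in PCR are counted once. The embryos are models of in vitro development only, and the labels give neither the genotype nor the oocyte donor of any embryo.

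Early embryos live at first on mRNA that the oocyte made and stored, and this store is cleared while the embryonic genome is switched on, which in cattle happens around these stages. Many transcripts of the maternal store code for proteins whose known work lies in adult tissues. MYF5 is a myogenic transcription factor that commits cells to skeletal muscle. PDE6C is the catalytic subunit of the phosphodiesterase of cone photoreceptors. UCHL1 is a deubiquitinating enzyme known as a marker of neurons, and NETO1 is an auxiliary subunit of glutamate receptors in the brain. UBASH3A dampens signalling of the T cell receptor, DPP4 is a peptidase on the surface of T cells and epithelia, and F3 is tissue factor, the receptor on vessel-associated cells that starts blood clotting. No oocyte or zygote was among the samples, so a maternal origin of these transcripts was not measured.

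Of 170 cells, 161 with 2000 or more UMI were used, 43 from Day 2 (6 to 9 per embryo) and 118 from Day 3 (13 to 17 per embryo). The UMI of an embryo's cells were summed, which gave 438899 to 920192 UMI on genes per Day 2 embryo and 294912 to 600185 per Day 3 embryo. Levels are in CPM, a gene's UMI per 1000000 UMI of all genes in the embryo, and because each mRNA is counted once at its 3′ end, no division by transcript length was made. The embryos are numbered E1 and so on within each day. A split within Day 3 moves with the results below. ERCC spike-in RNA, added to each well with the reverse transcription mix, took 1.38% to 1.52% of the UMI of every Day 2 embryo and of Day3-E1, Day3-E2 and Day3-E3, and 2.43% to 2.98% in Day3-E4 to Day3-E8. Over all 170 cells, 77 barcode sequences were carried by 2 cells each, and for every pair 1 of the cells was in Day3-E4 to Day3-E8 or was the 16th cell of Day3-E3. That cell had an ERCC share of 24.6%, and it held 1 UMI of the 7 genes. The other 15 cells of Day3-E3 carried barcodes used by no other cell. Day 2 is thus represented in only 1 of the sets, and what the sets contribute to the results was not tested beyond the values given for each set.

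On Day 2 the 7 genes were present in every embryo at similar levels, and together they held 1268 ± 102 CPM (SD, n = 6). Their sum in the Day 3 embryos was 441 ± 356 CPM (SD, n = 8). The sum ran from 1108 to 1376 CPM over the Day 2 embryos, with a median of 1282, and from 54.1 to 1065 over the Day 3 embryos, with a median of 342, so that the days did not overlap. The coefficient of variation of the sum between embryos was 8.02% on Day 2 and 80.7% on Day 3. Relative to their mean, the Day 3 embryos thus lay much farther apart than the Day 2 embryos. For the 7 genes taken alone, the coefficients of variation were 9.0% to 35.4% on Day 2 and 58.9% to 114% on Day 3. In CPM, the SD of UBASH3A was smaller on Day 3 (14.26 on Day 2 and 6.98 on Day 3), and that of NETO1 was similar (9.33 and 9.57). For MYF5, F3, PDE6C, UCHL1 and DPP4 it was larger on Day 3. The Day 3 values of genes with few UMI include counting error. Of the 7 genes, 2 had every Day 3 embryo below every Day 2 embryo, against 5.38% of the 5274 genes tested between the days. This share is given beside the count because the genes were chosen by the same contrast, and nothing is read from it.

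**Figure D1:**
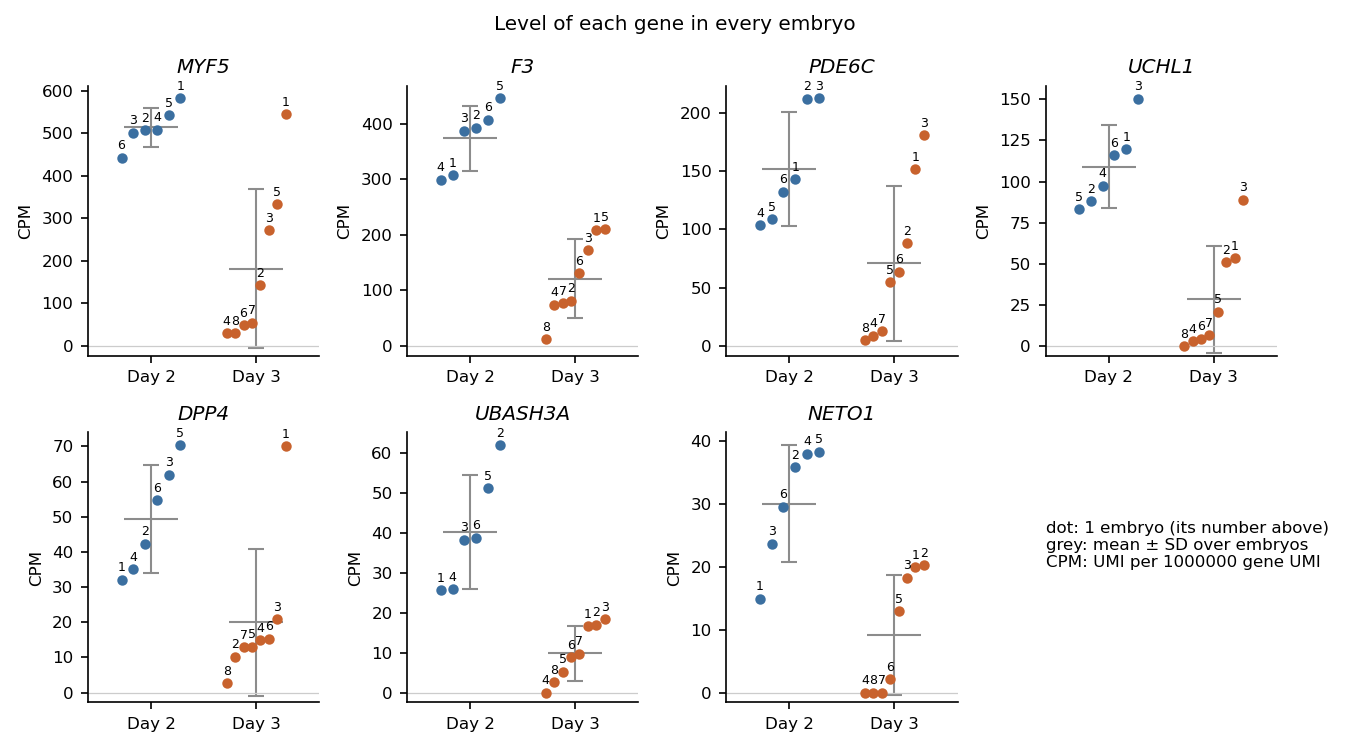
Level of each of the 7 genes in CPM (vertical axis, own scale per gene) in the 6 Day 2 embryos (blue) and the 8 Day 3 embryos (orange). Each dot is 1 embryo with its number, and grey bars are mean ± SD. F3 and UBASH3A have all Day 3 dots below all Day 2 dots, and for MYF5 and DPP4 Day3-E1 alone lies within the Day 2 range.

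MYF5 was the most abundant of the genes on Day 2. Its level lay between 442 and 581 CPM with a median of 508 over the Day 2 embryos (514 ± 46.3 CPM, SD, n = 6) and between 29.9 and 545 CPM with a median of 98.7 over the Day 3 embryos (182 ± 187, SD, n = 8). Only Day3-E1, with 545 CPM, fell inside the Day 2 range. Day3-E5 followed with 333 CPM and Day3-E3 with 272. The other Day 3 embryos held 29.9 to 142 CPM. Its fitted log2 fold change between the days was -1.35 (standard error 0.48). Among the genes described here it was also the most even between Day 2 embryos, with a coefficient of variation of 9.0%.

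F3, the second most abundant, had 300 to 447 CPM with a median of 391 in Day 2 embryos (374 ± 58.1 CPM, SD, n = 6). In Day 3 embryos it had 12.9 to 211 CPM with a median of 106 (121 ± 71.4 CPM, SD, n = 8). No Day 3 embryo reached the lowest Day 2 embryo. The highest Day 3 levels, 211 CPM in Day3-E5 and 208 in Day3-E1, were nearly equal, although MYF5 differed between this pair of embryos. The fitted log2 fold change of F3 was -1.44 (standard error 0.32), the smallest standard error of the 6 genes that could be fitted.

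The gene of cone photoreceptors, PDE6C, was kept best over all Day 3 embryos, with a mean of 46.5% of its Day 2 mean. It also stood first in Day3-E1 to Day3-E3 (92.2%), but not in Day3-E4 to Day3-E8. There it kept 19.1%, below F3 (27.1%), DPP4 (23.8%) and MYF5 (19.3%). Within plate 2 and within plate 3, PDE6C was kept less than F3 and MYF5. PDE6C had 104 to 212 CPM with a median of 138 on Day 2 (152 ± 48.8 CPM, SD, n = 6). On Day 3 it had 5.15 to 181 CPM with a median of 59.1 (70.7 ± 66.2 CPM, SD, n = 8). Day3-E3 with 181 CPM and Day3-E1 with 152 CPM lay within the Day 2 range. The fitted log2 fold change was -0.92 (standard error 0.49), the smallest of the 6.

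Both genes known from neurons went down to 0 UMI among the Day 3 embryos, as did UBASH3A. UCHL1 had 83.2 to 150 CPM with a median of 107 on Day 2 (109 ± 24.98 CPM, SD, n = 6) and 0 to 89.0 CPM with a median of 13.63 on Day 3 (28.5 ± 32.4, SD, n = 8), with only Day3-E3 inside the Day 2 range. The fitted log2 fold change was -1.73 (standard error 0.54). NETO1 had 14.96 to 38.4 CPM with a median of 32.7 on Day 2 (30.1 ± 9.33 CPM, SD, n = 6) and 0 to 20.3 CPM with a median of 7.59 on Day 3 (9.23 ± 9.57, SD, n = 8). Day3-E1 to Day3-E3, with 18.3 to 20.3 CPM, lay within the Day 2 range. NETO1 did not pass the filter on low counts, so no fold change was fitted, and with 157 UMI in all it rests on the fewest counts of the genes. No UMI of UCHL1 was found in Day3-E8, and none of NETO1 in Day3-E4, Day3-E7 and Day3-E8. A count of 0 in these embryos allows up to 7.72 to 9.70 CPM (3 UMI, counting error only), so that absence cannot be told from a lower level.

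UBASH3A and DPP4, both known from T cells, were the least abundant together with NETO1. UBASH3A had 25.6 to 61.9 CPM with a median of 38.5 on Day 2 (40.3 ± 14.26 CPM, SD, n = 6). On Day 3 it had 0 to 18.3 CPM with a median of 9.23 (9.77 ± 6.98 CPM, SD, n = 8), with no UMI in Day3-E4, where up to 8.97 CPM are allowed. Day 2 and Day 3 did not overlap, and the fitted log2 fold change was -1.79 (standard error 0.39), the most negative of the 6. DPP4 had 32.1 to 70.4 CPM with a median of 48.5 on Day 2 (49.4 ± 15.39 CPM, SD, n = 6) and 2.57 to 70.0 CPM with a median of 14.0 on Day 3 (20.0 ± 20.9, SD, n = 8). Day3-E1 had 70.0 CPM of DPP4, as much as the highest Day 2 embryo, while the next Day 3 embryo had 20.9 CPM. The fitted log2 fold change of DPP4 was -1.02 (standard error 0.40). Without Day3-E1, the Day 3 mean of DPP4 was 25.99% in place of 40.4% of the Day 2 mean.

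Each of the values above was also looked at within the plates named in the titles. Plate 2 held Day2-E5 and Day2-E6 beside Day3-E7 and Day3-E8, and there the sum of the 7 genes had a Day 3 mean of 8.93% of the Day 2 mean. Plate 3 held Day2-E1 to Day2-E4 beside Day3-E5 and Day3-E6, and the sum had a Day 3 mean of 36.6% of the Day 2 mean. All 7 genes had every Day 3 embryo below every Day 2 embryo on plate 2, as had 48.5% of the 5274 tested genes, and on plate 3, as had 28.3%. Plate 1 held Day 3 embryos only. By the paper's collection times, the Day 3 embryos of plate 2 were older than those of plate 3, so plate and age cannot be told apart here. Within the Day 3 embryos whose ERCC share was that of Day 2 (Day3-E1 to Day3-E3), the sum was 410 to 1065 CPM, 59.1% of the Day 2 mean on average. All 3 lay below all Day 2 embryos for the sum and for 2 of the 7 genes, F3 and UBASH3A, against 8.63% of the tested genes. In Day3-E4 to Day3-E8 the sum was 54.1 to 650 CPM, 20.2% of the Day 2 mean on average, and all 7 genes were below every Day 2 embryo in all 5, against 18.6% of the tested genes. Since the genes were chosen by this contrast, nothing is read from these counts.

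A Day 3 embryo holds more and smaller cells, so the spike-in was used for a second scale. In UMI per 1000 ERCC UMI, the sum of the 7 genes was 86.7 ± 9.24 in the average well of Day 2 embryos (SD, n = 6) and 25.3 ± 26.3 in that of Day 3 embryos (SD, n = 8), a mean of 29.2%. The mean over all genes was 70.3% on this scale. Multiplied by the number of cells of each embryo in the table, the sum per embryo stood at 57.7% of the Day 2 mean, against 139% for all genes. It was 164% in Day3-E1 and 123% in Day3-E3, so on this scale both embryos held no less of the 7 transcripts in all than the average Day 2 embryo. The sum per embryo was 64.8% in Day3-E5, 64.6% in Day3-E2, and 4.93% to 18.3% in the other 4. This scale contains the difference in ERCC share between the sets of Day 3 embryos, and how much of it is RNA content and how much is capture cannot be told apart.

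To order the genes by how far they had faded, the level in each Day 3 embryo was divided by the mean of the Day 2 embryos, and the median over the 8 Day 3 embryos was taken. UCHL1 was kept least with 12.5%, followed by MYF5 with 19.2%, UBASH3A with 22.9%, NETO1 with 25.2%, DPP4 with 28.3%, F3 with 28.5% and PDE6C with 38.9%. The steps of this order were small against the spread between embryos. UCHL1 was kept less than MYF5 in 6 of 8 embryos. Every other gene was kept less than its next neighbour in only 4 or 5 of 8, so that none of these neighbours can be called different. Ordered by the mean over embryos instead of the median, UBASH3A was least kept with 24.3% and PDE6C again most with 46.5%. In this other order MYF5 with 35.4% stood in the fifth place, because the mean takes in the high level of Day3-E1. The order also moved with the way levels were taken. From the mean over cells of each cell's CPM, UCHL1 and PDE6C stayed at the ends and the 5 genes between them changed places. After thinning cells to 10000 UMI, NETO1 was least and UBASH3A most kept, both with few UMI. For the median gene of the 5274 tested, the Day 3 mean was 82.2% of the Day 2 mean.

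**Figure D2:**
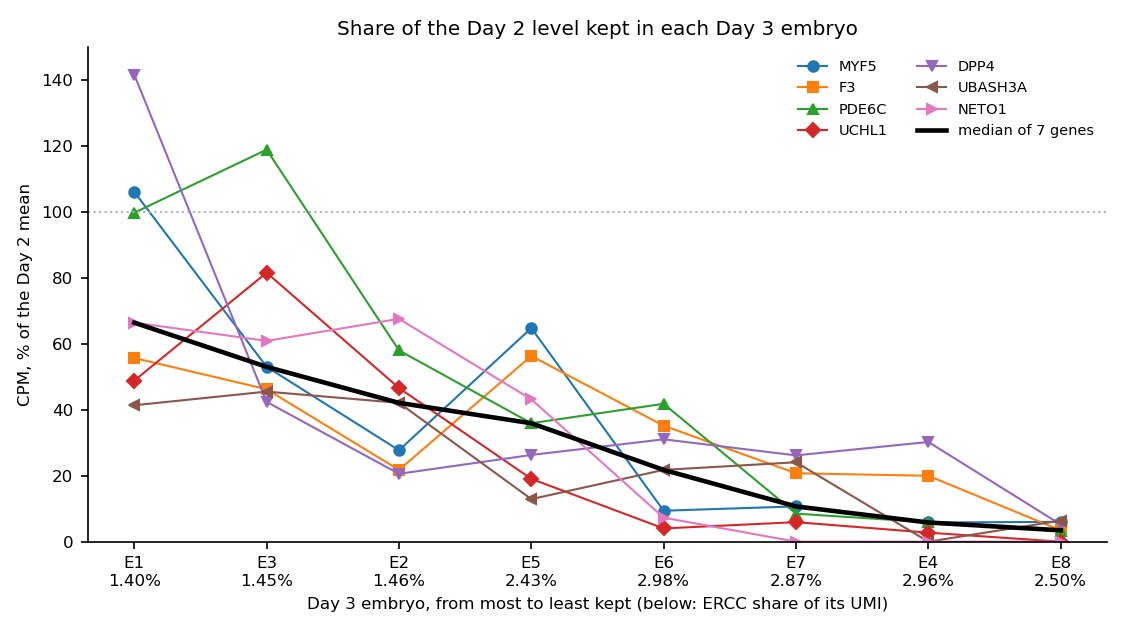
Level of each gene in the 8 Day 3 embryos as a percentage of its Day 2 mean (vertical axis), with embryos sorted by the median over the 7 genes (black line), which falls from 66.4% to 3.44%. The ERCC share of each embryo's UMI is printed below its number, and the 3 embryos with shares below 1.5% are the 3 that kept most.

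The embryos could be ordered more clearly than the genes. Day3-E1 had a median over the 7 genes of 66.4% of the Day 2 mean, with 4 of the genes inside the range of the Day 2 embryos. Day3-E3 had 53.0% and Day3-E2 had 42.1%. Next came Day3-E5 with 35.9%, Day3-E6 with 21.8% and Day3-E7 with 10.699%. Day3-E4 with 5.82% and Day3-E8 with 3.44% had faded most. In Day3-E8 all 7 genes were below 10% of their Day 2 mean, and in Day3-E4 5 were. Day3-E1 and Day3-E3 were among the 3 embryos that kept most for each of the 7 genes, while Day3-E8 was among the 3 that kept least for each of the 7. The embryos that kept most are those with the lower ERCC share, and this split and the order cannot be told apart between the sets. Inside each set the medians still ran from 66.4% to 42.1% and from 35.9% to 3.44%. The age of the embryos differed as well. The paper reports that Day3-E1 to Day3-E4 were collected earliest, then Day3-E5 and Day3-E6, and Day3-E7 and Day3-E8 latest. The time of the third cleavage also varied between them. What age contributes to the order was not tested.

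Across the 8 Day 3 embryos, the genes faded in much the same order of embryos. Over the 21 pairs of genes, Spearman's rho had a median of 0.738 and ran from 0.333 for DPP4 with UBASH3A to 0.929 for PDE6C with UCHL1. The points share libraries and depth, and no test was made. DPP4 stood most apart, since its rho with MYF5, UBASH3A, UCHL1 and NETO1 was 0.452, 0.333, 0.548 and 0.342. DPP4 stayed between 12.9 and 15.34 CPM in Day3-E4 to Day3-E7, where it had 4 to 7 UMI per embryo, so its order among them rests on few counts.

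MYF5 and PDE6C, a pair picked from the 21, did not stand in the same proportion in every embryo. MYF5 took 70.2% to 83.3% of the UMI of MYF5 and PDE6C together in the Day 2 embryos. In Day3-E6 it took 43.1% (22 UMI of MYF5 and 29 of PDE6C, 95% Wilson interval 30.5% to 56.7%), and in Day3-E5, from the same plate and barcode set, 85.9% (128 UMI and 21, 79.4% to 90.6%). These intervals do not meet, and they cover counting error only. In Day3-E6, 7 UMI of MYF5 and 8 of PDE6C came from 1 cell, which the intervals do not take into account. The intervals of Day2-E3 (66.3% to 73.9%) and Day2-E5 (79.8% to 86.3%) do not meet either, so the proportion already differed between Day 2 embryos. Day3-E3 with 60.1% (52.7% to 67.1%) also lay below every Day 2 embryo, and Day3-E2 with 61.8% (49.9% to 72.4%) did so by less than its interval. In Day3-E1 the share was 78.2%. Measured against the Day 2 means, PDE6C kept more than MYF5 in Day3-E2, Day3-E3 and Day3-E6 (58.0%, 119% and 41.8% against 27.7%, 53.0% and 9.39%). MYF5 kept more in Day3-E5 (64.8% against 35.9%). F3, too, kept 35.2% in Day3-E6, where UCHL1 kept 4.02%. Whether these embryos had started from the same proportions was not tested.

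Single cells were then compared. Every one of the 43 Day 2 cells had a UMI of at least 1 of the 7 genes, and 106 of 118 Day 3 cells did (89.8%, 95% Wilson interval 83.1% to 94.1%). By embryo, this Day 3 share ran from 73.3% to 100%. The intervals of cell shares pool cells of several embryos and leave out the spread between embryos. A Day 2 cell had UMI of a median of 7 of the genes and a Day 3 cell of 3. MYF5 was seen in 41 of the 43 Day 2 cells (95.3%, 84.5% to 98.7%), and of the 118 Day 3 cells 82 had it (69.5%, 60.7% to 77.1%). Taken by embryo, the share of cells with MYF5 was 95.8% ± 6.63 (SD, n = 6) in Day 2 embryos, and in Day 3 embryos it was 69.3% ± 19.3 (SD, n = 8). Day 2 cells held more UMI in all (median 76074 against 24696), so each cell with enough UMI was also thinned to 10000 UMI, which left 37 Day 2 and 103 Day 3 cells and left out 6 and 15. Of the thinned cells, all 37 from Day 2 had MYF5, against 57 of 103 from Day 3 (55.3%, 45.7% to 64.6%). Taken by embryo, the thinned Day 3 share was 54.6% ± 37.3 (SD, n = 8) and ran from 0% to 100%. F3 was found in 35 of 37 and 64 of 103, PDE6C in 30 of 37 and 41 of 103, and UCHL1 in 23 of 37 and 22 of 103. DPP4, NETO1 and UBASH3A lay near or below 1 UMI per thinned cell, with UMI in 17, 13 and 5 of the 37 Day 2 cells and in 18, 10 and 7 of the 103 Day 3 cells, and no order is read from these shares.

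The number of genes seen per cell fell from embryo to embryo in the way of the summed levels. After thinning, a cell of Day3-E1 or Day3-E3 had UMI of a median of 4 of the genes, within the Day 2 embryo medians of 4 to 5. A cell of Day3-E2 or Day3-E5 had 3, a cell of Day3-E6 had 2, and a cell of Day3-E4 or Day3-E7 had 1. In Day3-E8 the median was 0, and 8 of its 14 thinned cells had no UMI of any of the 7 genes. Among the cells at their own depth, 12 of 118 had none, 4 of them from Day3-E8 and 3 from Day3-E4.

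**Figure D3:**
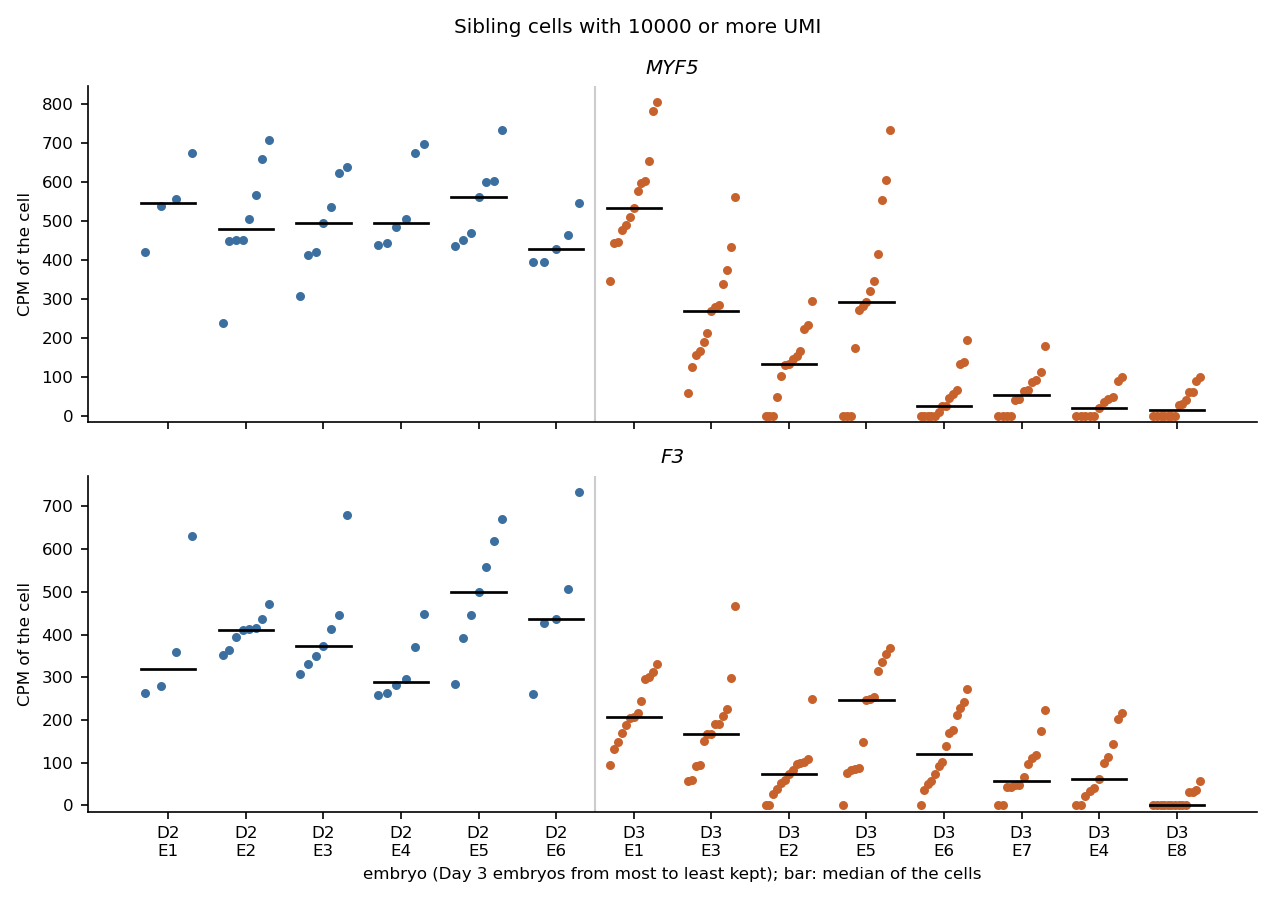
MYF5 (upper panel) and F3 (lower panel) in CPM of the single cell (vertical axis) for cells with 10000 or more UMI, by embryo (blue, Day 2; orange, Day 3). Bars are medians over the cells of an embryo. In Day3-E5 the cells run from 0 to 733 CPM of MYF5, while in Day3-E1 they run from 347 to 806.

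The spread between cells of the same embryo was measured as the variance of a gene's UMI over that of a Poisson count at the depths of the cells, an index that is 1 where counting alone makes the spread. It was computed only where a gene had a mean of 1 or more UMI per cell. For MYF5 the index had a median of 1.73 over the 6 Day 2 embryos (0.724 to 3.35) and of 1.49 over 6 Day 3 embryos (1.16 to 3.52). For F3 it was 3.43 on Day 2 (0.383 to 3.73) and 1.43 over 7 Day 3 embryos (1.13 to 1.82). The median gene of an embryo had an index of 0.968 to 1.23 on Day 2 and of 1.21 to 1.72 on Day 3. Where cells differ by the same fold, the index grows with a gene's number of UMI, and this was not adjusted for. F3 lay above the median gene in 5 of 6 Day 2 embryos. In cells with 10000 or more UMI it ran from 261 to 735 CPM over the 5 such cells of Day2-E6, but only from 352 to 472 over the 8 of Day2-E2.

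Of the less abundant genes, PDE6C had a median index of 1.91 on Day 2 (0.541 to 2.24) and of 1.17 over 5 Day 3 embryos, and UCHL1 of 1.35 (0.553 to 2.498) and 1.06 (3 Day 3 embryos). On Day 2 the index of DPP4 had a median of 1.19 but ran from 0.741 to 3.106, with its highest values in Day2-E1 and Day2-E6 (2.72). UBASH3A had a median of 1.12 (0.150 to 1.64) and NETO1 of 0.738 (0.242 to 1.76). The spread in excess of counting was also expressed as a coefficient of variation, which does not grow with the number of UMI and was set to 0 where the index was below 1. Over the Day 2 embryos it ran from 0 to 20.8% for MYF5, to 29.3% for F3, to 35.8% for PDE6C, to 30.3% for UCHL1, to 91.8% for DPP4, to 39.3% for UBASH3A and to 54.5% for NETO1. It was 0 for NETO1 in Day2-E1, Day2-E4, Day2-E5 and Day2-E6, but for F3 in Day2-E2 only. The highest values of DPP4, UBASH3A and NETO1 rest on few counts. Whether a lower index in these genes means a smaller spread between cells therefore cannot be told. On Day 3, DPP4 reached a mean of 1 UMI per cell in Day3-E1 only, where its index was 1.44, and UBASH3A and NETO1 in no embryo, so their spread could not be measured at this depth. After thinning to 10000 UMI, the index over the 7 genes and the embryos in which it could be measured moved in the median from 1.396 to 1.13.

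The highest Day 3 index of MYF5, 3.52, was that of Day3-E5. Of its 13 cells with 10000 or more UMI, 3 had no UMI of MYF5 and the other 10 held 173 to 733 CPM. At the share that MYF5 has in the whole embryo, the 3 cells, with 24546, 14939 and 11774 UMI, would hold 8.17, 4.97 and 3.92 UMI of MYF5, or 17.1 together. They held 8 UMI of F3, where 10.79 stand at the embryo's share. This group of cells was picked after its values were seen, and no test was made. In Day3-E1, by contrast, all 13 cells of this depth held between 347 and 806 CPM of MYF5.

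The fading of the 7 genes was set beside the rise of 20 genes that the study lists as markers of embryonic genome activation. In Day 2 embryos the 20 genes summed to 88.3 to 165 CPM. Few of them carried most of this sum. DDX3Y alone had a mean of 86.2 CPM over the Day 2 embryos. The labels do not give the sex of any embryo, and its part in the level of DDX3Y was not tested. Over the Day 3 embryos FOLR1 had a mean of 420 CPM and DDX3Y of 217 CPM, the highest of the 20. What single genes contribute to the relations below was not tested. In Day3-E1, with a sum of 1065 CPM of the 7 genes, the 20 genes stood at 130 CPM. In Day3-E8, with 54.1 CPM of the 7 genes, they stood at 2132 CPM. Over the 8 Day 3 embryos the sums had a Pearson r of -0.861 and a Spearman rho of -0.905. Without Day3-E4 and Day3-E8, the embryos farthest from the median of the activation sum, r was -0.919 and rho -0.771 (n = 6). The points share their libraries and the denominator of the CPM, and since the 7 genes were chosen for their fall no p is given. The sets of 3 and 5 embryos are too small for a correlation of their own. In Day3-E1, Day3-E3 and Day3-E2 the 7 genes had 1065, 772 and 410 CPM against 130, 429 and 1021 CPM of the activation genes. In Day3-E5, Day3-E6, Day3-E7, Day3-E4 and Day3-E8 they had 650, 274, 175, 132 and 54.1 CPM against 296, 872, 1002, 2074 and 2132. In both sets, each embryo with more of the activation genes had less of the 7.

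**Figure D4:**
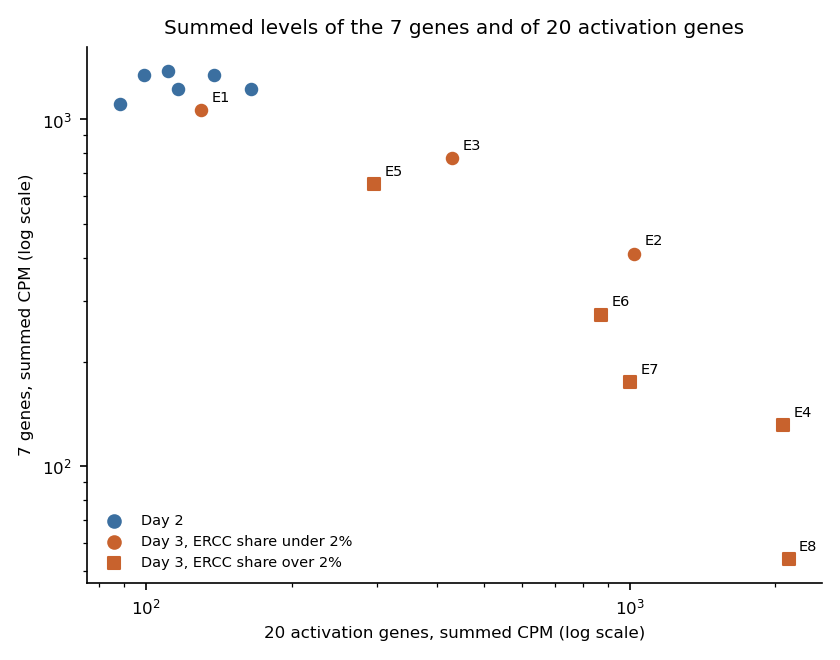
Summed CPM of the 7 genes (vertical axis, log scale) against summed CPM of 20 activation genes (horizontal axis, log scale) in 6 Day 2 (blue) and 8 Day 3 embryos (orange; squares, ERCC share over 2%). Day3-E1 with 1065 and 130 CPM lies beside the Day 2 embryos, and Day3-E8 with 54.1 and 2132 CPM lies at the far end.

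Between cells of 1 embryo the relation was weak. Spearman's rho between the summed level of the 7 genes and that of the activation genes over the cells of a Day 3 embryo was -0.241 ± 0.252 on average (SD, n = 8 embryos). It was negative in 7 of 8 embryos and ran from -0.475 in Day3-E4 to 0.327 in Day3-E1. In thinned cells the mean was -0.290 ± 0.260, again negative in 7 of 8, but the exception was then Day3-E2 with 0.190, while Day3-E1 had -0.341. The thinned cells differ from the others in depth and also leave out the shallowest cells, and which of these moved the sign was not tested. Most cells held few UMI of either list, and these values are a description without a test.

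Relatives of the 7 genes were followed by a list of 25 genes of the same families or pathways, of which 14 were among the genes the table lists. Over all 5274 genes tested, 32.5% differed between the days at an adjusted p under 0.05 (quasi-likelihood test of edgeR, adjusted after Benjamini and Hochberg), 595 of them lower and 1117 higher on Day 3. With no scaling beyond library size, the median log2 fold change of all genes moved from -0.04 to -0.27 and 981 genes were lower and 890 higher. Of the relatives 4 could be tested and 1 was lower, while 3 were lower by DESeq2. UCHL5, a deubiquitinating enzyme of the proteasome, fell from 98.7 ± 15.33 CPM to 49.8 ± 25.2 CPM (log2 fold change -0.77 ± 0.26, SE; adjusted p = 0.0332 in the edgeR fit). This call was lost with the replicate block (adjusted p = 0.124, edgeR), which took the embryo number as a covariate and left out Day3-E7 and Day3-E8. The call was also lost with the plate as a covariate, within either plate and with Day3-E1 to Day3-E3 alone. It was lost, too, when Day2-E2, Day2-E4, Day2-E5, Day3-E3 or Day3-E7 was left out (adjusted p of 0.0514 to 0.0722, edgeR). UBASH3B, the widely expressed relative of UBASH3A, had 65.8 ± 17.04 and 31.0 ± 22.8 CPM (log2 fold change -0.86, adjusted p = 0.0802 with edgeR). DPP8, a cytosolic relative of DPP4, had 266 ± 19.7 and 142 ± 80.3 CPM (-0.71, adjusted p = 0.0640 with edgeR). Both passed by DESeq2, and both passed with Day3-E4 to Day3-E8 alone or without Day3-E1 or Day3-E3. PDE6D, which carries prenylated proteins, had 207 ± 44.2 and 162 ± 63.95 CPM (-0.14, adjusted p = 0.661 with edgeR), with a log2 fold change of 0.06 when only Day3-E1 to Day3-E3 were used. The median log2 fold change of the 4 relatives was -0.74, against -0.04 over all genes tested and -1.39 over the 6 fitted genes of the 7.

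The closest relatives of several of the genes were near the limit of detection. MYF6, a myogenic factor of the same family as MYF5, had 16.27 ± 5.55 CPM on Day 2 against 10.59 ± 7.57 on Day 3, and MYOD1 had 1 UMI in all embryos together. PDE6A, a rod counterpart of PDE6C, had 11.84 ± 3.89 and 8.28 ± 4.62 CPM, and PDE6B, its partner in rods, had 1 UMI. FAP, the closest relative of DPP4, likewise had 1 UMI, and the clotting factor gene F10 had 5. These 4 genes with 1 to 5 UMI were named after their values were seen. DPP3 had 18.9 ± 4.25 and 11.55 ± 10.22 CPM, DPP6 had 13.109 ± 6.69 and 9.05 ± 7.87 CPM, and the thrombin receptor F2R had 18.6 ± 5.25 and 10.18 ± 5.10 CPM (SD over 6 and 8 embryos). None of these was tested, since their counts did not pass the filter.

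Markers of the tissues in which the 7 genes are known were counted in the same way, with the ranges of their sums over embryos. The skeletal muscle list, of which 9 of 14 genes were listed, summed to 30.4 to 64.1 CPM in Day 2 and 19.4 to 62.8 CPM in Day 3 embryos, led by MYF6 (98 UMI in all) and MYH2 (73 UMI). MYF5 alone held 442 to 581 CPM in the Day 2 embryos. The photoreceptor list (6 of 14 listed) summed to 9.13 to 27.3 and 5.20 to 26.9 CPM, led by CNGA3 with 41 UMI and GNAT1 with 31. Markers of T cells (12 of 14 listed) summed to 120 to 161 and 61.4 to 164 CPM, led by TRAT1 with 67.0 CPM on Day 2 and 46.7 on Day 3. ZAP70, a kinase of the T cell receptor pathway, was the 1 called of 2 tested and was higher on Day 3, with 22.0 ± 10.03 and 49.7 ± 35.96 CPM (log2 fold change 1.55 ± 0.50, SE; adjusted p = 0.0268 with edgeR). That call was lost within either plate, with the replicate block or the plate as a covariate, with Day3-E1 to Day3-E3 alone, and when Day2-E1, Day2-E2, Day2-E3, Day2-E5, Day3-E4 or Day3-E8 was left out (adjusted p of 0.0546 to 0.0653, edgeR). Neuronal genes (11 of 14 listed) summed to 711 to 1280 and 427 to 1393 CPM, mostly from the neurofilament gene NEFL (655 and 431 CPM) and from TUBB3 (135 and 169 CPM). None of the 4 tested was called by edgeR, 1 had an unadjusted p under 0.05, and by DESeq2 1 was higher. Endothelial genes (7 of 10 listed) summed to 256 to 340 and 92.7 to 312 CPM, led by TEK (127 and 73.1 CPM) and VWF (90.1 and 52.9 CPM). By edgeR 0 of 3 were called and 0 had an unadjusted p under 0.05, and DESeq2 also called 0. Without Day3-E1, TEK was lower (adjusted p = 0.0363 with edgeR), and so was NEFL without Day3-E5 (adjusted p = 0.0216 with edgeR), while TUBB3 was higher without Day3-E3 (adjusted p = 0.0375 with edgeR). TEK was also lower within plate 3 and with the plate as a covariate, and VWF within plate 2, and both with Day3-E4 to Day3-E8 alone. TUBB3 was higher within plate 3, with the plate as a covariate and with Day3-E4 to Day3-E8 alone.

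Markers of cumulus and granulosa cells and of sperm were counted too. The cumulus cells that remained after fertilisation had been removed by vortexing. Of 15 cumulus and granulosa genes, 12 were listed, and they summed to 517 to 629 CPM in Day 2 and 196 to 576 CPM in Day 3 embryos. Their leading genes were HAS2 with 254 and 190 CPM and STAR with 260 and 143 CPM, and of 3 tested edgeR called 0, with 1 at an unadjusted p under 0.05, while DESeq2 called 1 lower. STAR was lower with no scaling beyond library size (adjusted p = 0.0469 with edgeR), and without Day3-E1 (0.0484) or Day3-E5 (0.0423). The sperm list (5 of 8 listed) summed to at most 6.84 CPM in a Day 2 and 10.297 CPM in a Day 3 embryo, with 10 UMI of AKAP4 and 3 of ODF1 in all embryos. The part of other cell types in the levels of the 7 genes was not tested.

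Oocyte genes served as a second view of the maternal store. Of 28 genes fixed in the list, 16 were listed in the table and tested. By edgeR 5 of them were lower and 1 higher on Day 3, with a median log2 fold change of -0.29 (7 lower and 2 higher by DESeq2). Over all 5274 genes tested by edgeR, 595 were lower and 1117 higher, 32.5% in all. ZAR1, which holds maternal mRNA in the oocyte, fell from 268 ± 41.5 CPM to 83.9 ± 60.8 CPM (log2 fold change -1.49 ± 0.34, SE; adjusted p = 0.00359 with edgeR). This call held in every alternative tried. GDF9, an oocyte growth factor, fell from 1042 ± 134 to 473 ± 305 CPM (-0.97 ± 0.31; adjusted p = 0.02502 with edgeR). NPM2, an oocyte histone chaperone, and OOEP, of the subcortical maternal complex, had log2 fold changes of -0.85 and -0.56 (adjusted p = 0.0303 and 0.0344 with edgeR). ZP2, a zona pellucida protein named here after its values were seen, was the fifth with -0.53 (adjusted p = 0.0450 with edgeR). AURKC, a meiotic kinase, was higher, with 375 ± 40.3 and 465 ± 90.5 CPM (log2 fold change 0.56, adjusted p = 0.00984 with edgeR), and this call was lost with no scaling beyond library size (0.31, adjusted p = 0.171 with edgeR), with no filter on low counts (adjusted p = 0.0667), with the replicate block (0.0580) and within plate 2 (0.435). DPPA3, a maternal factor that guards DNA methylation, with 2764 ± 364 and 3286 ± 1037 CPM, and KPNA7, an importin of the oocyte, with 2183 ± 316 and 2244 ± 903 CPM, were the most abundant of the list and were not called. DPPA3 was higher by DESeq2, within plate 3, with Day3-E4 to Day3-E8 alone, and without Day3-E2 (adjusted p = 0.0449 with edgeR) or Day3-E8 (adjusted p = 0.0206 with edgeR), and KPNA7 was higher within plate 3 (adjusted p = 0.0185 with edgeR).

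The calls of the oocyte list rested in part on single embryos. Without Day2-E2, 1 gene of the list was lower by edgeR, and GDF9, NPM2, OOEP and ZP2 had an adjusted p of 0.0501 to 0.0622 in that edgeR fit. NPM2 was also lost without Day3-E4 or Day3-E7, OOEP without Day2-E3, Day2-E4, Day3-E2 or Day3-E4, and AURKC without Day2-E5. ZP2 was lost without any 1 of 10 of the 14 embryos. With only Day3-E1 to Day3-E3 against Day 2, ZAR1 alone was lower. The fitted log2 fold changes of the 6 fitted genes of the 7, which were chosen for their fall, ran from -0.92 for PDE6C to -1.79 for UBASH3A, and those of the 5 oocyte genes called lower from -0.53 to -1.49.

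For each of the 7 genes, the 3 tested genes with the most similar pattern over the 14 embryos were found by Pearson's r of log2(CPM + 1). MYF5 was followed most closely by NUSAP1, a protein of the mitotic spindle (r = 0.988), and by PWP1 (0.986) and RNF34 (0.983). NUSAP1 was more abundant, with 2803 ± 163 CPM on Day 2 and 1250 ± 868 on Day 3. F3 was followed by OOEP (0.979), CTNND1 (0.978), a catenin, and SNX19 (0.978). PDE6C was followed by RPGRIP1 (0.981), a protein of the photoreceptor cilium with 937 ± 85.1 CPM on Day 2 and 583 ± 305 on Day 3, by SEPT11 (0.974) and by DENND1A (0.972). UCHL1 was followed by ITPR1 (0.989), a calcium channel of the endoplasmic reticulum, PPME1 (0.976) and TMEM242 (0.976). DPP4 had lower values, with NUBP1 (0.952), DNAJC27 (0.937) and EML4 (0.930). UBASH3A was followed by SEPT4 (0.958), PARP1 (0.955), an enzyme of DNA repair, and CDCA2 (0.954), and NETO1 by IFNGR1 (0.984), RALGPS2 (0.9746) and UBXN4 (0.972). The 21 genes were all different. These r follow from a search over all tested genes across embryos of both days and are a description, with n = 14 embryos and no p.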

How the data were processed

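Blastomeres of 6 Day 2 and 8 Day 3 bovine embryos were profiled by SCRB-Seq. The authors mapped reads to Bos tau7 and ERCC sequences with STAR 2.5.2b and deposited UMI counts per gene and cell from the Drop-seq pipeline, not normalised. UMI counting removes PCR copies, and 3′ reads cannot tell isoforms apart. The authors' normalised table was not used, and the columns of no sample in the table used numbered 0.

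Cells with 2000 or more UMI were kept (161 of 170, with 2101 to 362668 UMI) and summed per embryo, the replicate. Each embryo number is unique within a day, and nothing in the labels says whether embryos of 1 day share an oocyte batch. Days were compared over all genes by the quasi-likelihood test in edgeR 4.0.16 (R 4.3.3; TMM scaling, filterByExpr, Benjamini-Hochberg adjustment, threshold 0.05), and by DESeq2 1.42.0 as an alternative. The fit was also run on simulated counts that had the same dispersion on both days, so that run does not cover the wider spread between Day 3 embryos. Correlations, spread and thinning used Python 3.11.15 with NumPy 2.4.6, SciPy 1.17.1 and pandas 2.3.3. Correlations of genes used log2(CPM + 1). Intervals of shares are Wilson intervals at 95%, and a count of 0 was given an upper limit of 3 UMI. Both cover counting error only.

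The 7 genes and all lists were chosen with earlier results of these data known. Named beside the 7 were, for each, the 3 genes most similar over embryos, relatives with a mean of 10 CPM or more on either day, of the oocyte list the 4 called genes that fell most, the 2 that rose most and the 2 most abundant, and the 2 most abundant genes of each tissue list. Genes outside this rule are said to be so where they are named. Tests of the summed level of the 7 genes against the activation genes had been planned, but their p-values are not given, since the genes were chosen by their level.

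Alternatives were other scalings, tools, filters and cell limits, thinning to 10000 UMI, the spike-in scale, the plate, the replicate block and leaving out each embryo. The replicate block took the embryo number as a covariate and left out Day3-E7 and Day3-E8, whose numbers do not occur on Day 2. Since embryo numbers do not pair the samples, it is a fit with fewer embryos and corrects for no pairing. The split of the Day 3 embryos by barcodes and ERCC share was added after seeing the data.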

Additional observations from a re-analysis of the deposited data

Results flagged for a closer look

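Of 29 sets of values over the embryos of 1 day, 3 had 1 embryo far from the others by Dixon's test at 95%, and chance gives about 1 in 20. DPP4 stood at 70.0 CPM in Day3-E1, while the next Day 3 embryo had 20.9 CPM. The spread index of F3 between the cells of Day2-E2 was 0.383, where the other Day 2 embryos had 2.57 or more. The rho between the summed level of the 7 genes and that of the activation genes over the cells of Day3-E1 was 0.327, while the next embryo had -0.122. In cells thinned to 10000 UMI it was -0.341.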

How the results depend on the processing

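The summed level of the 7 genes was lower on Day 3 in every alternative, with a Day 3 mean of 8.93% (plate 2 alone) to 59.1% (Day3-E1 to Day3-E3 alone) of the Day 2 mean, and of 27.8% to 39.2% when 1 embryo was left out. Of the 7 genes, 2 kept their place in the order of fading with the mean over cells, 2 after thinning and 5 with TMM scaling. Over all genes, 595 were lower on Day 3, against 981 with no scaling, 214 with the replicate block, 87 with Day3-E1 to Day3-E3 alone, 1114 with Day3-E4 to Day3-E8 alone, and 420 (without Day3-E4) to 919 (without Day3-E1) when 1 embryo was left out. Lower genes were 34.8% of the calls, 52.4% with no scaling, 44.7% with the plate as a covariate, 16.05% with Day3-E1 to Day3-E3 and 45.4% with Day3-E4 to Day3-E8. Of the oocyte list 5 genes were lower, 2 with the replicate block, 1 with Day3-E1 to Day3-E3 alone, and 1 (without Day2-E2) to 7 (without Day3-E1) when 1 embryo was left out. Of the relatives 1 was lower, 3 with no scaling, DESeq2 or Day3-E4 to Day3-E8 alone, 0 with the replicate block, plate 2 alone or Day3-E1 to Day3-E3 alone, and 0 to 3 when 1 embryo was left out. The causes were not tested; fits with fewer embryos have less power.

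With Day3-E1 to Day3-E3 alone, log2 fold changes of genes that were not called turned positive for PDE6D (0.0616), APBB2 (0.0907), TRAT1 (0.115), VWF (0.123), TEK (0.0380) and HAS2 (0.0281), and in plate 3 alone for TRAT1 (0.0255), NEFL (0.315) and HAS2 (0.0153). Embryo numbers do not pair the samples: the correlation of same-numbered embryos ran from -0.134 to 0.0263 over 6 numbers. Depth limits NETO1, UBASH3A and DPP4 most, with 157 to 278 UMI in all.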

Other observations

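The genes that flank the 7 genes were looked up by their order in RefSeq's ARS-UCD2.0 annotation, which is not the build of the counts. The 7 genes lie on 7 chromosomes, and of 14 flanking genes 4 could be tested. Of these 3 were lower on Day 3, against 595 of 5274 over all genes. These genes were named after their values were seen. FRA10AC1, beside PDE6C, had 227 CPM on Day 2 and 94.0 on Day 3 (log2 fold change -1.06, adjusted p = 0.00902 with edgeR). FBXO15, beside NETO1, had 191 and 85.8 CPM (-0.96, adjusted p = 0.0247 with edgeR), and ABCD3, beside F3, had 126 and 64.9 CPM (-0.73, adjusted p = 0.0224 with edgeR). APBB2, beside UCHL1, had 195 and 140 CPM (-0.27, adjusted p = 0.336 with edgeR). With Day3-E1 to Day3-E3 alone none of the 4 was called by edgeR. The flanking genes of MYF5, DPP4 and UBASH3A had too few UMI for a test. Of the untested flanking genes, some had a higher mean on Day 3. These were WDR4 beside UBASH3A (3.92 and 22.9 CPM), CBLN2 beside NETO1 (2.29 and 12.5) and SLC4A10 beside DPP4 (1.78 and 2.38). MYF6, LIN7A, SLC44A3, RBP4, BEND4, FAP and TFF3 had a lower one.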
